A study of Mus musculus with 20 samples.

Results

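The 6 genes described here mark how a neuron loads its vesicles with glutamate or GABA: Slc17a6, Slc17a7, Slc17a8, Slc32a1, Gad1 and Gad2. They were chosen by symbol, and all 6 were found among 37994 genes of the main table and among 36104 genes of a second table. The series profiled single cells of the developing mouse habenula in 384-well plates with CEL-Seq2, a method that tags each mRNA at its 3' end with a unique molecular identifier (UMI). The main set held 15 plates of the Brn3a-tauLacZ line (Brn3a is Pou4f1, a POU transcription factor of habenula neurons), with 2 plates each at embryonic day 11 (E11), E13, E15, E18, postnatal day 4 (P4), P7 and adult, and 1 plate at E12. The second set held 5 plates of C57BL/6 mice at E18, with 2 from the left habenula, 2 from the right and 1 from both sides, a plate whose title reads E1 while its other labels read E18. The labels used here do not give the zygosity of the Brn3a-tauLacZ mice, the age of the adults, the number of animals behind a plate or how cells were picked, so a p-value measures the spread between plates, which may be technical. No treatment is named for any group.

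Glutamate enters synaptic vesicles through the transporters VGLUT2 (Slc17a6), VGLUT1 (Slc17a7) and VGLUT3 (Slc17a8). GABA is made from glutamate by the decarboxylases encoded by Gad1 and Gad2, and is loaded by VGAT (Slc32a1), which also carries glycine. The habenula relays forebrain signals to the midbrain through mainly glutamatergic neurons, and its medial part holds a cholinergic group (Chat, Slc18a3, Slc5a7) and a group that expresses the tachykinin gene Tac1.

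In GRCm38 with GENCODE M21 annotation, all 6 were protein-coding genes. Slc17a6 (ENSMUSG00000030500) lay on chromosome 7 from 51622006 to 51671119 on the plus strand, and Slc17a7 (ENSMUSG00000070570) on the same strand from 45163949 to 45176142. Slc17a8 (ENSMUSG00000019935) lay on chromosome 10 from 89574020 to 89621253 on the minus strand. The GABA genes were all on the plus strand of chromosome 2, with Gad2 (ENSMUSG00000026787) from 22622205 to 22693874, Gad1 (ENSMUSG00000070880) from 70553072 to 70602014 and Slc32a1 (ENSMUSG00000037771) from 158610767 to 158615748. The antisense gene Gad1os overlapped a Gad1 exon and the antisense gene Gm14205 an Slc32a1 exon, and no source used here states whether counting used strand. Gm14205 has no row of its own in the tables used here, so UMIs from it and from Slc32a1 cannot be told apart if strand was not used. Gad1os had 12 UMIs at P7, where Gad1 had 1103, and 25 UMIs at E18 in the main set, where Gad1 had 247.

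The RefSeq windows upstream of both Slc17a6 starts and of the Slc17a7 start (GRCm38.p6, plus strand, 250 bases each) are shown because these transporters carry the stage results: the first was expressed at all stages and the second mainly after birth. Capitals mark matches on either strand to any of 3 motifs. The first is ATTAAT, an AT-rich core that POU homeodomain factors can bind, which reads alike on both strands. The second, ATCAAT, has the reverse complement ATTGAT. The third is CATCTG, an E-box of the kind bound by NeuroD factors, with the reverse complement CAGATG. The windows span chr7:51621580-51621829, chr7:51624387-51624636 and chr7:45163671-45163920, and the second lies inside the annotated Slc17a6 gene, outside its M21 exons.
Slc17a6 upstream window, first start: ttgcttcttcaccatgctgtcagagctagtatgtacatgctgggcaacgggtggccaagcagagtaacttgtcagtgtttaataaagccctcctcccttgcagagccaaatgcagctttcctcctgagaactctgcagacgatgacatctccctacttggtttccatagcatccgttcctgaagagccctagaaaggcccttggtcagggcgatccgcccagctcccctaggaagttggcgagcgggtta
Slc17a6 upstream window, second start: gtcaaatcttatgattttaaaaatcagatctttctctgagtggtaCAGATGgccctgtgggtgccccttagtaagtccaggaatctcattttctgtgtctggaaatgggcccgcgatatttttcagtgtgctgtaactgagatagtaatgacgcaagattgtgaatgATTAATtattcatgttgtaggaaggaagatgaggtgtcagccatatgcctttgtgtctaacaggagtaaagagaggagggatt
Slc17a7 upstream window: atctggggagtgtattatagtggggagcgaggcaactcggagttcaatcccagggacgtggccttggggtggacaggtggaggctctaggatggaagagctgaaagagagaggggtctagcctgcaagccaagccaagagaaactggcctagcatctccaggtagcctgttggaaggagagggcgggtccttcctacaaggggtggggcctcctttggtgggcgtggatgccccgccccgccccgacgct
The second Slc17a6 window held 1 ATTAAT, whose first base lay at -83 from the start, and 1 CAGATG at -205, and it had a GC content of 41.2%. The first Slc17a6 window (53.2% GC) and the Slc17a7 window (61.2% GC) held none of the 3 motifs. Over 32851 mouse windows of the same length, 4.39% held ATTAAT, 6.72% held ATCAAT and 14.4% held CATCTG, and the median GC content was 52.4%. These matches describe letters in a window and do not mark bound sites.

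Wells were kept if they had 1000 or more UMIs (spike-ins and mitochondrial genes not counted), 500 or more detected genes and no more than 20% mitochondrial UMIs. These were 3729 of 5756 wells of the main set and 1082 of 1920 of the second. Kept wells summed to between 758697 and 7760372 counts per plate, with median UMIs per well from 4408 to 28236. Plates carry the same set of well barcodes by design, so shared barcodes do not mark shared cells. Neuron markers (at least 3 of 10 genes) were detected in 96.4% to 100% of kept wells from E11 to E15 and in 97.3% to 99.1% at P4 and P7. The first E18 plate stood apart, with 80.9% of wells carrying neuron markers and 28.1% with a Pou4f1 UMI, against 92.7% and 85.5% on the second. On both adult plates fewer wells than at P7 had neuron markers (76.8% and 79.2%), and oligodendrocyte-lineage genes summed to 10184 and 2609 CPM (counts per 1000000 counts) against 167 and 156 at P7. E13 plate 2 differed from E13 plate 1, with ependymal and choroid plexus genes at 3853 against 15.9 CPM and vascular genes at 2053 against 480. A Pou4f1 UMI was found in 51.1% of its kept wells against 71.2%. Medial habenula markers summed to 263 CPM on the first E18 plate and to between 500.2 and 7810 on all others. No P4, P7 or adult plate had more than 2 wells with at least 3 of the 6 lateral habenula markers and fewer than 3 medial ones. Wells with 3 markers of both kinds are not in that count. Levels below are CPM of all kept wells of a plate, so fewer expressing cells and less RNA per cell cannot be told apart.

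Slc17a6, the main vesicular glutamate transporter of the habenula, was present from the first stage and highest after birth. The E11 plates had 185 and 197 CPM, the E12 plate 258, the E13 plates 279 and 252, the E15 plates 452 and 273, and the E18 plates 257 and 378. After birth the levels were 511 and 526 CPM on the P4 plates, 555 and 537 on the P7 plates, and 336 and 285 on the adult plates. All P4 and P7 plates lay above all other plates, both E11 plates lay below all others, and the E12, E13, E15, E18 and adult plates lay between. Ordered by mean, E11 (191 ± 8.81 CPM, SD, n = 2) was followed by E12, E13 (266 ± 18.8), adult (311 ± 36.1), E18 (317 ± 85.6), E15 (362 ± 126), P4 (518 ± 11.2) and P7 (546 ± 12.5), and the only adjacent pairs with 2 plates each that did not overlap were E13 and adult, E15 and P4, and P4 and P7. In the last of these the estimated difference was 0.06 ± 0.28 (log2, SE; adjusted p = 1, edgeR).

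In the main set Slc17a7 was low before birth and abundant after it. Before birth the plate values were 8.11 and 5.72 CPM (E11), 4.63 (E12), 1.14 and 5.84 (E13), 4.89 and 2.08 (E15), and 0.798 and 0.753 (E18, 3 UMIs in 377 wells). After birth they were 182 and 177 CPM (P4), 242 and 306 (P7), and 137 and 238 (adult). Every postnatal plate lay above every embryonic plate, and the means were 180 ± 3.58 CPM at P4, 188 ± 71.2 in adults and 274 ± 45.3 at P7 (SD, n = 2), with the P4 plates inside the adult range. At P4, 206 of 287 and 253 of 322 kept wells had a Slc17a7 UMI.

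Slc17a8, a glutamate transporter often found in neurons that also use another transmitter, stayed low throughout, with 1.02 to 6.24 CPM on the plates from E11 to E15. Later plates had 3.59 and 12.8 CPM (E18), 4.75 and 5.06 (P4), 12.6 and 16.4 (P7), and 10.5 and 6.76 (adult). Both P7 plates were higher than every other plate except the second E18 plate, which lay between them.

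Gad1, the gene for the decarboxylase GAD67, was low until E15 and uneven between plates later. Its level was at most 8.69 CPM on any plate from E11 to E15. From then on the plates had 39.9 and 111 CPM (E18), 29.1 and 1.53 (P4), 75.7 and 91.4 (P7), and 55.4 and 17.3 (adult). The means were 15.3 ± 19.5 CPM at P4, 36.4 ± 26.9 in adults, 75.4 ± 50.1 at E18 and 83.5 ± 11.1 at P7 (SD, n = 2). Both P4 plates lay below both E18 and both P7 plates, the adult plates overlapped P4 and E18, and the P7 plates lay inside the E18 range.

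Gad2, which encodes the other glutamate decarboxylase, was lowest on the E11 plates, with 0.386 and 0.204 CPM. It was 6.96 CPM on the E12 plate, 13.6 and 3.72 (E13), 12.5 and 2.97 (E15), 17.2 and 16.6 (E18), 6.79 and 2.76 (P4), 6.06 and 5.98 (P7), and 2.64 and 9.18 (adult). Both E18 plates were above all other plates of the main set. Slc32a1, which encodes the vesicular GABA transporter, was barely detected. Its level was 1.55 and 1.63 CPM (E11), 0.211 (E12), 2.27 and 0 (E13), 0 on both E15 plates, and 1.60 and 0.753 (E18). No Slc32a1 UMI was found in any kept well of the P4, P7 and adult plates. The upper limit that 0 counts leave (3 counts per plate, counting error only) was 0.509 and 0.460 CPM for the P4 plates, 0.387 and 0.528 for the P7 plates, and 3.95 and 0.596 for the adult plates.

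**Figure D1:**
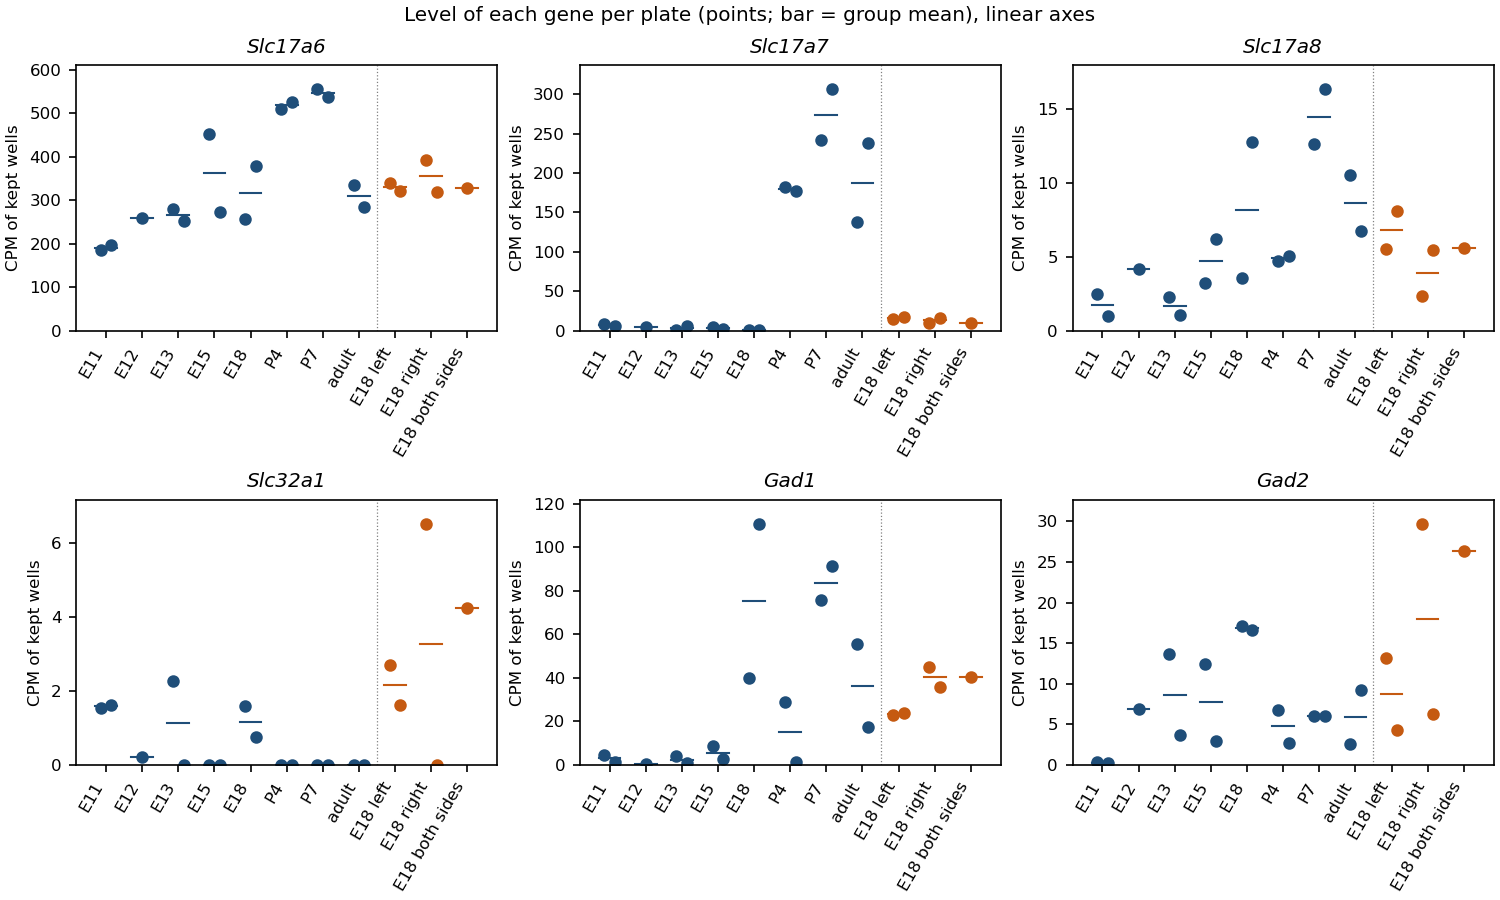
Level of each of the 6 genes on each plate (points; y axis, CPM of kept wells, linear and scaled per gene) by stage and, right of the dotted line, for the E18 plates of the second set; the short bar is the group mean. Slc17a7 is at most 8.11 CPM on every embryonic plate of the main set and at least 137 CPM on every postnatal one, while Slc32a1 is at 0 on all 6 postnatal plates.

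Change over the 7 stages with 2 plates was tested on counts summed per plate with edgeR's quasi-likelihood F test (Benjamini-Hochberg adjustment over all genes). All 5 genes that passed the low-count filter were called, against 46.4% of all genes tested, and Slc32a1 failed the filter. The adjusted p was 2.66e-06 for Slc17a7, 0.00608 for Slc17a6, 0.0118 for Gad1, 0.0212 for Slc17a8 and 0.0261 for Gad2. The calls for Slc17a8 and Gad2 rested on single plates: leaving out the second E11 plate or either P7 plate gave adjusted p up to 0.0918 for Slc17a8 and up to 0.150 for Gad2, and each lost its call without 4 of the 14 plates in turn.

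Among successive stages, members were called only between E18 and P4, where 2 of 5 tested were higher and 19.6% of all genes were called in either direction (edgeR). Slc17a7 rose by 8.03 ± 0.61 (log2, SE; adjusted p = 0.000104), and it was called under all 15 alternative settings. In summed UMIs, 2229 at P4 stood against 3 at E18, a ratio of 229-fold after scaling for depth. The 95% counting interval was 78.4 to 1113, which is wider than the SE given above implies. The fold rests on the 3 UMIs of the main set's E18 plates; the E18 plates of the second set, tabulated apart, had 9.87 to 17.8 CPM of Slc17a7. Slc17a6 was 0.91 ± 0.29 higher at P4 (adjusted p = 0.0458). That call was lost under 10 of 15 alternatives: in Pou4f1-positive wells alone the difference was 0.37 (adjusted p = 0.277), and without the first E18 plate it was 0.58 (adjusted p = 0.225). In wells with a Pou4f1 UMI Slc17a6 was 533 and 401 CPM at E18 against 524 and 539 at P4, and these ranges overlapped. Gad1 was -2.12 ± 1.00 at P4 relative to E18 and Gad2 -1.61 ± 0.76, both with an adjusted p of 0.146. Without P4 plate 1 the Gad1 estimate was -5.32 (adjusted p = 0.0366).

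No member passed the test in the other steps. From E11 to E13 (1.45% of genes called) the largest estimate was that of Gad2, 4.59 ± 1.04 (adjusted p = 0.0562), and from E13 to E15 (0.0917% called) that of Slc17a8, 1.68 ± 0.82 (adjusted p = 0.439). From E15 to E18 (0.195% called) Gad1 was 3.74 ± 1.18 higher (adjusted p = 0.168), and every E18 plate lay above every E15 plate. The share of all genes without overlap between 2 plates a stage was not counted, so no result is read from that order. From P4 to P7 (0.00573% called) Gad1 was 2.46 ± 0.99 and Slc17a8 1.53 ± 0.62 higher, each with an adjusted p of 1. From P7 to adult (3.58% called) Slc17a6 was -0.93 ± 0.29 (adjusted p = 0.0986). In wells with a Pou4f1 UMI, Slc17a6 was 575 and 550 CPM at P7 against 412 and 344 in adults. The edgeR test on those wells called 0 of 5 members in this step. In Pou4f1-negative wells Slc17a6 was 112 and 263 CPM at P7 against 129 and 51.4 in adults.

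Both postnatal glutamate transporters were found in the same wells. With all UMIs used, 197 of 206 Slc17a7 wells of the first P4 plate and 246 of 253 of the second also had Slc17a6, as did 256 of 261 and 225 of 240 at P7. To compare plates of unequal depth, each well was thinned to 3000 UMIs and shallower wells were left out. Thinned, both genes were detected in 24.4% and 26.2% of P4 wells, 37.2% and 35.4% of P7 wells, and 27.0% and 19.5% of adult wells. The product of the single shares was 24.7% and 26.0% at P4 and 33.0% and 35.5% at P7, close to the joint shares, whereas in adults it was 13.7% and 13.5%, below them. The adult plates were also those with the fewest neuron-marker wells after birth.

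Wells with both a glutamate transporter and a GABA gene were found at joint shares that were near the product of the separate shares at P4 and P7 and on either side of it elsewhere. A well counted for glutamate with a UMI of any of the 3 transporters and for GABA with a UMI of Gad1, Gad2 or Slc32a1. Thinned to 3000 UMIs, both kinds were detected in 27 of 320 and 27 of 274 wells of the P7 plates (8.44% and 9.85%; 95% exact binomial intervals 5.63% to 12.0% and 6.60% to 14.0%), and the products were 7.76% and 9.91%. At E18 the shares were 3.94% and 14.7% with products of 4.24% and 12.4%, at P4 3.64% and 0.984% with products of 4.26% and 1.08%, and in adults 8.11% and 1.63% with products of 6.94% and 3.21%. On the E11, E12, E13 and E15 plates between 0.302% and 2.38% of wells had both, with products between 0.126% and 2.96%; the joint share was below the product on 5 of these 7 plates. Both E11 plates, the E12 plate and E13 plate 1 had 1 such well each, and with at least 2 UMIs of each kind no plate from E11 to E15 had any. These are descriptions of wells of single plates and carry no test.

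Read from the GABA side, glutamate transporters were about as frequent in GABA-gene wells of the P7 plates as in all wells of those plates, where their shares were 82.8% and 87.6%. A glutamate transporter was present in 27 of 30 and 27 of 31 thinned P7 wells with a GABA gene, a mean of 88.5% ± 2.05 (SD, n = 2 plates). The same share was 10 of 14 and 3 of 4 wells at P4, too few to set apart. It was 47.8% ± 24.7 at E18 and 43.9% ± 22.8 in adults, and the E18 and adult plates varied widely. Among all thinned wells, Slc17a6 alone was detected in 32.3% and 54.9% on the E18 plates and in 45.9% and 42.7% on the adult plates. The lower shares at these stages are therefore not read as a trait of GABA-gene wells. Without thinning, the share of GABA-gene wells with a glutamate transporter was 72 of 73 and 57 of 58 wells at P7. On the adult plates it was 10 of 12 and 25 of 47 wells. As background, in the 45 adult wells of the second plate with vascular or oligodendrocyte markers (median 3459 UMIs, against 10382 for all kept wells of that plate), Slc17a7 was detected in 8.89%, Slc17a6 and Gad1 each in 4.44% and Gad2 in 2.22%. In all adult plate 2 wells, unthinned, those shares were 50.9%, 58.5%, 12.0% and 2.63%. For Gad2 the share among marker wells is 1 of 45 wells; of the 46 Gad2 UMIs on that plate 38 lay in a single well. Wells that failed the filter held at most 28 Slc17a6, 13 Slc17a7 and 5 Gad1 UMIs on any plate.

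**Figure D2:**
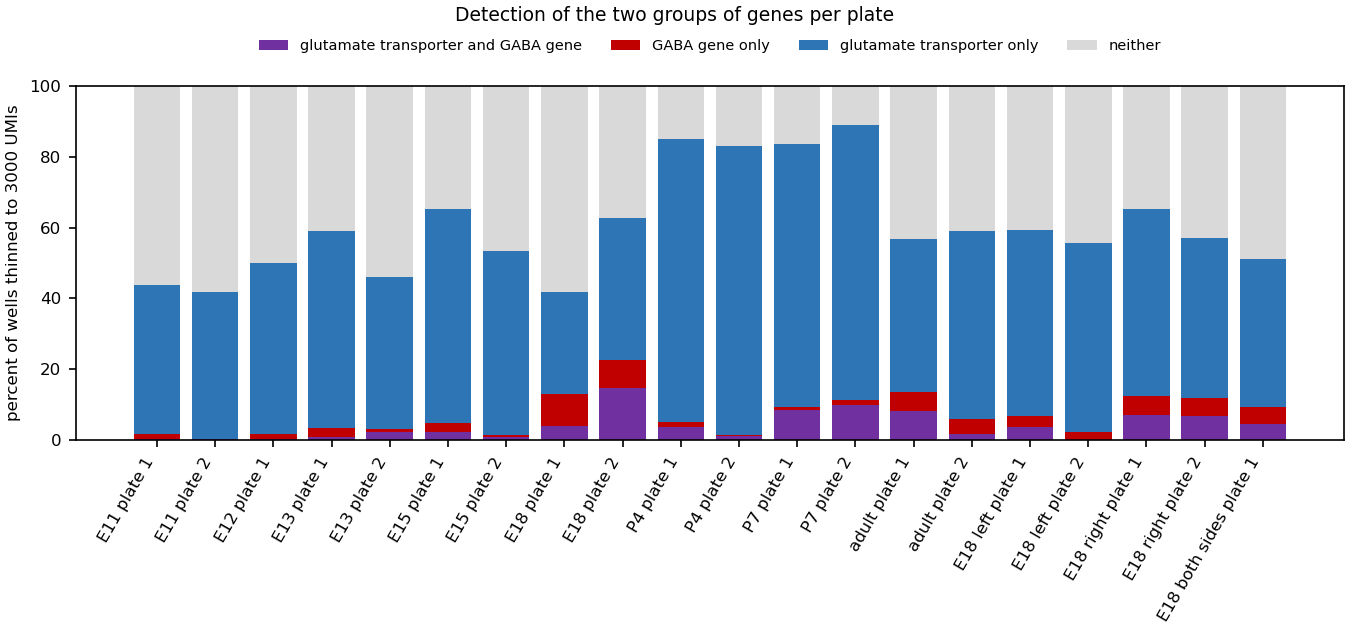
Share of wells per plate (bars, percent of wells thinned to 3000 UMIs) with a glutamate transporter and a GABA gene, with either alone, or with neither. A glutamate transporter is detected in 82.6% to 87.6% of P4 and P7 wells, and the share with both kinds is highest on the second E18 plate (14.7%), followed by the P7 plates (9.85% and 8.44%).

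Strong Gad1 expression at P7 lay in a small set of wells that all had Slc17a6 and mostly had Tac1. Wells with at least 5 Gad1 UMIs numbered 28 of 326 and 24 of 294, and they held 93.0% and 91.9% of all Gad1 UMIs of their plates, with up to 73 and 53 UMIs in a well. All 52 had Slc17a6, with a median of 16.5 and 14.5 UMIs against 11 and 8 in the other wells, none had Slc32a1, and 51 had Pou4f1. At least 5 Tac1 UMIs were found in 24 and 21 of them, and at least 2 UMIs of the cholinergic genes in 8 and 5. Strong wells were also deeper, with median UMIs of 29089 and 25333 against 21420 and 16217. Wells with at least 5 Tac1 UMIs made up 18.7% and 19.4% of kept P7 wells and held 91.3% and 88.2% of the Gad1 UMIs, but 10.0% and 12.6% of the Slc17a7 UMIs. At P4 the first plate had 20 such Tac1 wells, which held 87.1% of its 171 Gad1 UMIs. The second had 7, and none of its 10 Gad1 UMIs fell in them. In adults this changed with the plate: 57.1% of Gad1 UMIs on the first and 17.2% on the second fell in Tac1 wells, and on the second only 29.9% fell in Pou4f1-positive wells, which held 96.9% of its Slc17a7 UMIs.

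**Figure D3:**
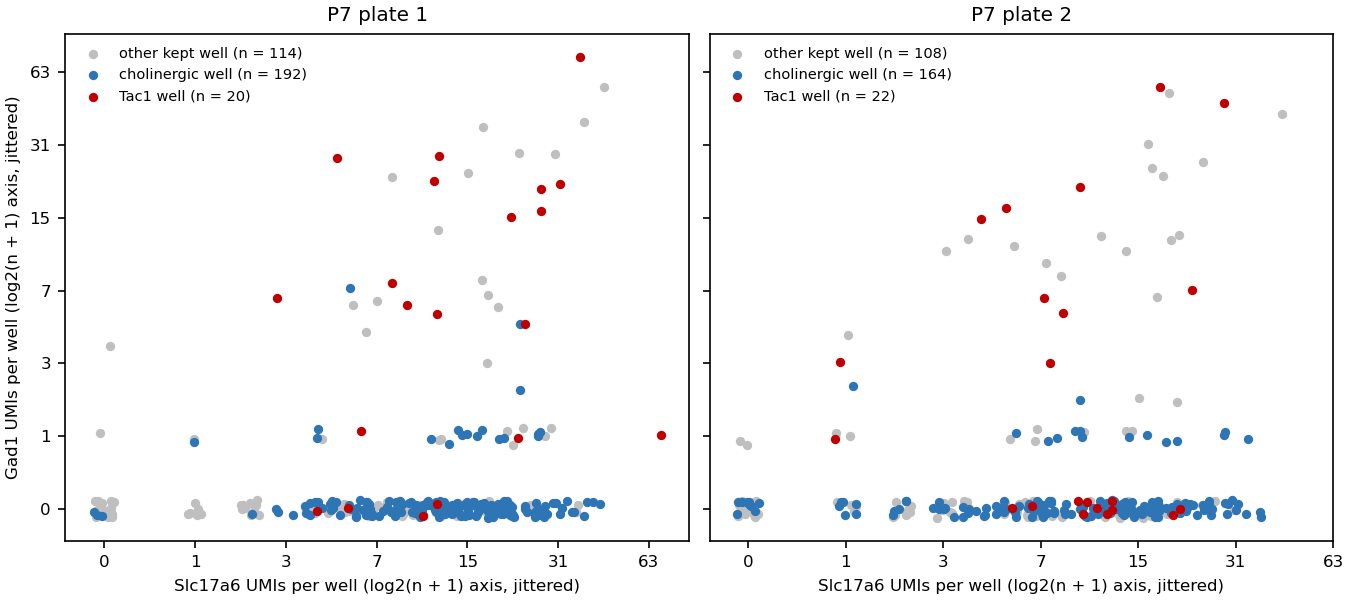
Slc17a6 (x axis) and Gad1 (y axis) UMIs of each kept P7 well, on log2(n + 1) axes with small random offsets, 1 panel per plate; colours mark cholinergic wells, Tac1 wells and all others. Wells with many Gad1 UMIs (up to 73 on plate 1 and 53 on plate 2) also hold Slc17a6 UMIs, and most cholinergic wells lie along the bottom, without a Gad1 UMI.

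Cholinergic and Tac1 wells of the same plates were then compared with edgeR, using a plate term and none of the 6 genes in either gate. A cholinergic well had at least 2 UMIs of Chat, Slc18a3 and Slc5a7 and under 5 of Tac1. A Tac1 well had at least 5 UMIs of Tac1 and none of the 3. Mixed wells, with at least 5 Tac1 UMIs and any UMI of the 3, were in neither gate. On P4 plate 1, P7 plate 1 and P7 plate 2, all wells with at least 5 Tac1 UMIs numbered 20, 61 and 57. They held 149, 534 and 457 Gad1 UMIs, whereas the gated Tac1 wells of these plates together held 494. Much of the Gad1 signal was therefore outside the comparison. Plates with 10 wells of each kind were P4 plate 1 (203 and 12 wells), P7 plate 1 (192 and 20) and P7 plate 2 (164 and 22), and median UMIs per well were alike in both gates, at 21022 and 20281, 23623 and 21409, and 19527 and 19715. Of the 5 members tested 4 were called, 1 higher in cholinergic wells and 3 higher in Tac1 wells, against 9.30% of all genes tested.

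Gad1 was 1.50, 5.73 and 4.76 CPM in the cholinergic wells of the 3 plates against 236, 470 and 379 CPM in their Tac1 wells. The groups did not overlap, and the difference was -6.47 ± 0.20 in cholinergic relative to Tac1 wells (log2, SE; adjusted p = 2.02e-14). Gad1 was detected in 6 of 12, 16 of 20 and 11 of 22 Tac1 wells, and in 5 of 203, 18 of 192 and 15 of 164 cholinergic wells. Gad2 followed it, at 0.428, 2.37 and 0 CPM against 25, 28.0 and 27.7, a difference of -4.84 ± 0.77 (adjusted p = 0.000164) that rests on 14 UMIs in cholinergic and 35 in Tac1 wells. Slc32a1 had no UMI in either gate.

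The glutamate transporters split 3 ways. Slc17a7 was higher in cholinergic wells, at 214, 319 and 397 CPM against 53.5, 121 and 156, by 1.52 ± 0.15 (adjusted p = 5.16e-07). Slc17a8 was higher in Tac1 wells, at 28.5, 26.1 and 21.3 CPM against 1.28, 6.32 and 5.04, with a difference of -2.59 ± 0.57 (adjusted p = 0.00415). Slc17a6 was 520, 566 and 551 CPM in cholinergic and 536, 670 and 517 CPM in Tac1 wells, which overlapped, with an estimate of -0.03 ± 0.11 (adjusted p = 0.933) whose sign changed under 3 alternatives. Slc17a6 was found in 54 of 54 Tac1 wells of these plates, and Slc17a7 in 43.

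**Figure D4:**
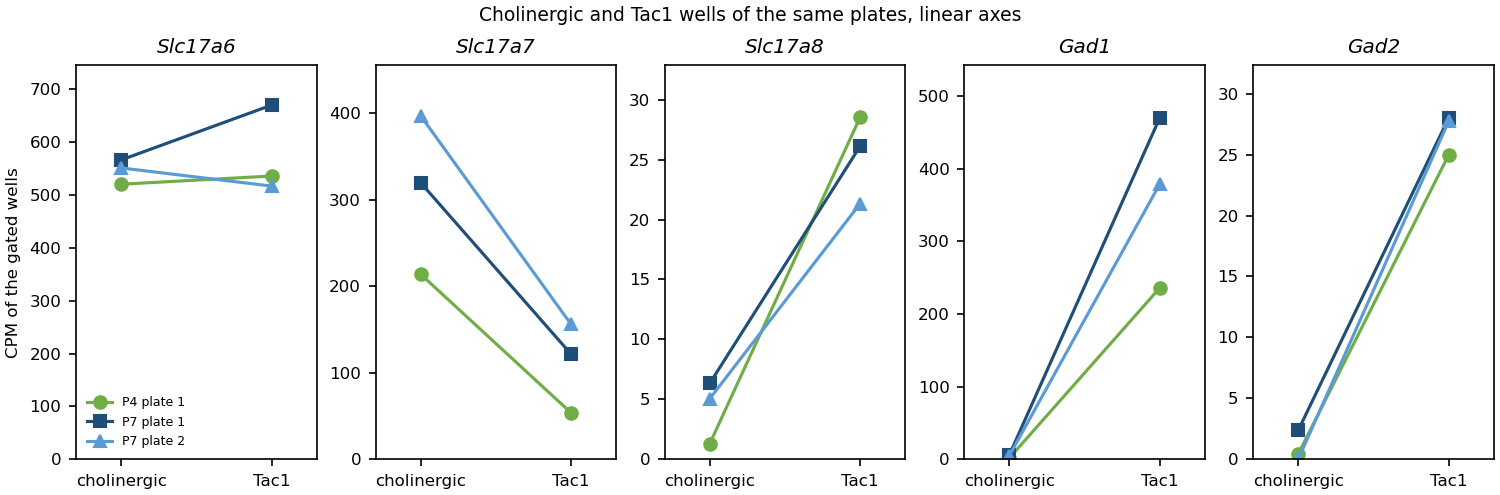
Level of 5 genes (y axes, CPM of the gated wells, linear, scaled per gene) in cholinergic and Tac1 wells of P4 plate 1, P7 plate 1 and P7 plate 2; a line joins the gates of 1 plate. Gad1, Gad2 and Slc17a8 are higher in Tac1 wells and Slc17a7 in cholinergic wells on all 3 plates, and the Slc17a6 lines do not share a direction.

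The same comparison on the E18 plates of the second set, added after the data were seen, used other mice and plates. On the 4 plates with 10 wells per gate, 3 of 5 members were called, against 8.02% of all genes (edgeR). Gad1 was 1.22, 7.46, 4.0 and 20.4 CPM in cholinergic wells of left plate 1, right plate 1, right plate 2 and the plate of both sides, against 41.8, 130, 129 and 93.3 in their Tac1 wells, a difference of -3.62 ± 0.34 (adjusted p = 1.31e-06). Slc17a7 was 28.7, 22.9, 37.0 and 32.1 CPM against 14.9, 8.14, 10.0 and 11.2, higher in cholinergic wells by 1.40 ± 0.30 (adjusted p = 0.00584). Slc17a8 was again called higher in Tac1 wells (-3.19 ± 0.72, adjusted p = 0.00839), on few UMIs. In the same plate order, all wells with at least 5 Tac1 UMIs, gated or not, held 13 of 33, 1 of 13, 8 of 19 and 9 of 37 Slc17a8 UMIs. On right plate 1 these were 7.69% of its Slc17a8 UMIs in 9.68% of its kept wells. Gad2, at -0.55 ± 0.54 (adjusted p = 0.691), was not called there, and Slc17a6 was 0.30 ± 0.10 (adjusted p = 0.104). On the plate of both sides, 1 well of the cholinergic gate held 20 Gad2, 19 Gad1 and 11 Slc32a1 UMIs, with Gata3, Tal1 and Sox14, and is described again among the Slc32a1 wells. In the adult Tac1 wells, only 5 and 9 in number, Gad1 was 128 and 46.4 CPM against 44.6 and 3.36 in cholinergic wells.

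Lineage factors of the fixed lists differed between the same gates. Of 6 tested factors of the glutamatergic lineage 3 were higher in cholinergic wells and 1 in Tac1 wells, against 9.30% of all genes called, with a list median of 1.66 against 0.01 over all genes (log2). Neurod6, Neurod2 and Neurod1, basic helix-loop-helix factors of maturing glutamatergic neurons, were higher in cholinergic wells by 9.06, 3.25 and 2.04 (adjusted p = 4.02e-05, 8.88e-07 and 9.83e-10, edgeR), and in the second set by 6.46, 3.22 and 1.97 (adjusted p = 1.02e-08, 2.59e-07 and 1.49e-08). Pou4f1 was lower by 0.42 (adjusted p = 0.0356), at -0.28 (adjusted p = 0.0469) in the second set. Of 11 tested genes that supply or take up glutamate only Slc1a2, a high-affinity glutamate uptake transporter, was called (-2.91 ± 0.31, adjusted p = 1.05e-06, and -0.99, adjusted p = 0.00275, in the second set), a share of the list near that of all genes.

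Wells with Slc32a1 were few, and those with the most Slc32a1 had almost no Slc17a6. They numbered 38 over the 20 plates, all at E11, E12, E13 or E18, and 21 of them, on 8 plates, had at least 2 Slc32a1 UMIs. Of these 21, 16 had Gad1, 15 had Gad2, 11 had Pou4f1, 8 had Slc17a6 and 18 had at least 2 of the 23 GABA-lineage factors. Several of the 11 held only 1 or 2 Pou4f1 UMIs. The 12 wells with at least 3 Slc32a1 UMIs had 0 or 1 Slc17a6 UMI each. In the well with the most Slc32a1 (right plate 1), 19 Slc32a1, 15 Gad1 and 15 Gad2 UMIs were found with no Slc17a6 and with Dlx1, Dlx6os1 and Six3, forebrain GABA-lineage genes. On the plate of both sides, 4 of the 5 wells with at least 2 Slc32a1 UMIs had at least 2 UMIs each of Gata3 and Tal1, also listed GABA-lineage factors. The well of that plate with the most Slc32a1 had 11 Slc32a1, 19 Gad1 and 20 Gad2 UMIs and no Slc17a6. By contrast, 139 wells on 14 plates had at least 5 Gad1 UMIs and no Slc32a1, and of these 128 had Slc17a6, 126 had Pou4f1 and 20 had at least 2 GABA-lineage factors. Among the 4152 wells without a GABA gene 3222 had Slc17a6, 3163 had Pou4f1 and 411 had at least 2 such factors. These counts pool stages, whereas every Slc32a1 well was embryonic. In the second set alone, all at E18, 14 of 52 such Gad1 wells and 120 of 847 wells without a GABA gene had at least 2 such factors. The counts rest on recovered whole UMIs, and a missing Slc32a1 UMI in a well does not show that the gene was silent.

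**Figure D5:**
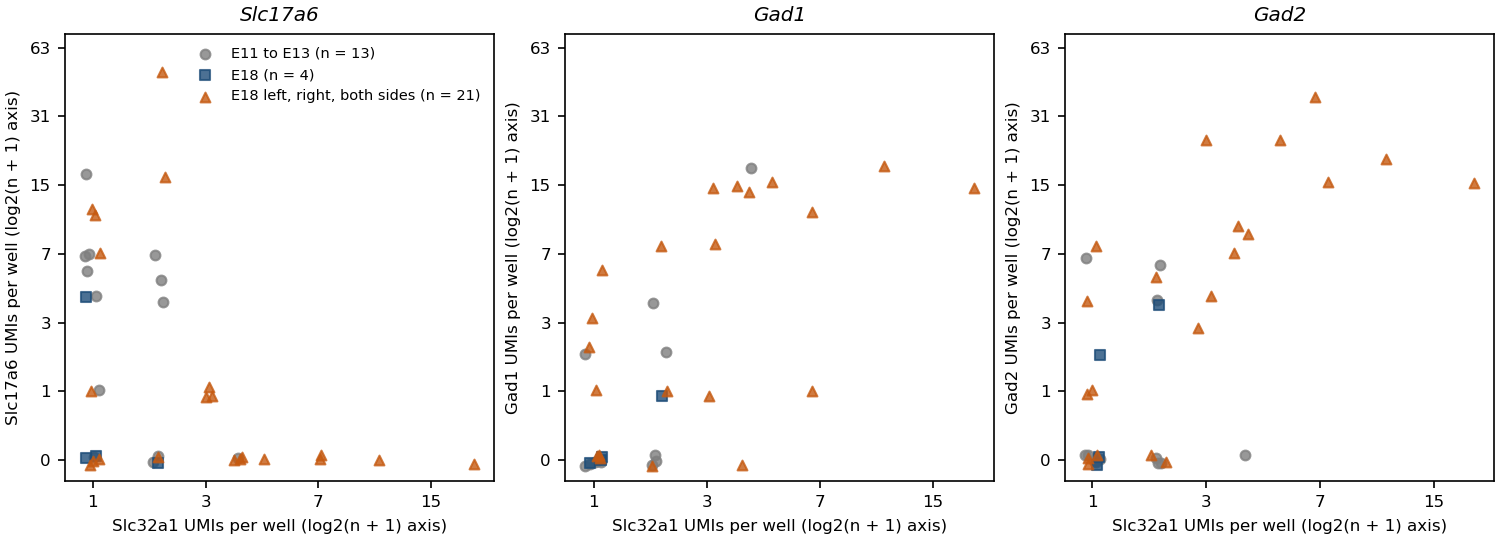
Slc17a6, Gad1 and Gad2 UMIs (y axes) against Slc32a1 UMIs (x axis) in the 38 wells with an Slc32a1 UMI, on log2(n + 1) axes with small random offsets; colours mark E11 to E13, E18 and the E18 plates of the second set. Wells with at least 3 Slc32a1 UMIs have at most 1 Slc17a6 UMI, and the highest Gad2 counts, up to 39, are among them.

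In the second set at E18, Slc17a6 was 339 and 321 CPM on the left plates, 394 and 319 on the right and 327 on the plate of both sides. No member differed between sides by edgeR, where 0% of genes were called, 182 had an unadjusted p under 0.05 and DESeq2 called 1 gene. Gad1, 23.2 and 23.8 CPM on the left and 44.9 and 35.8 on the right, was 0.77 ± 0.24 higher on the right without overlap (adjusted p = 1.00, edgeR). Slc17a8 also did not overlap, at 5.57 and 8.11 CPM on the left against 2.35 and 5.48 on the right. Its values rest on 33 and 15 UMIs against 13 and 19, and the right-minus-left estimate was -0.83 ± 0.61. The share of all genes without overlap between 2 plates a side was not counted, so no result is read from it. The other members overlapped between sides: Slc17a7 was 14.5 and 17.8 CPM left against 10.1 and 16.1 right, Gad2 13.2 and 4.32 against 29.7 and 6.34, and Slc32a1 2.70 and 1.62 against 6.52 and 0. Left plate 2 kept only 54 wells. Erythroid genes summed to 16915 and 14890 CPM on the left plates against 3121 and 251 on the right, and their part in these values was not tested.

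Slc17a7 differed between the E18 plates of both sets, which were normalized separately and are set side by side only. It was 0.798 and 0.753 CPM in the main set and 9.87 to 17.8 CPM in the second, and in Pou4f1-positive wells 0 and 0.810 against 11.7 to 20.0. Over all kept wells Slc17a6 was alike, at 257 and 378 CPM in the main set against 319 to 394 in the second. In Pou4f1-positive wells Slc17a6 was 533 and 401 CPM against 340 to 404. The main set's E18 plates had 2 and 6 cholinergic wells and the second set's plates 11 to 71, and mouse line, plate and table changed together, so they cannot be told apart.

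Genes that supply, clear or load these transmitters were read from fixed lists, each with the number called between E18 and P4 by edgeR, a step in which 19.6% of all genes were called. Of 14 genes of glutamate supply and uptake 3 were higher at P4 and 3 lower, with a list median of 0.08 against -0.07 over all genes (log2). The glutamate uptake transporters Slc1a2 and Slc1a3, both known from astrocytes, fell by 3.42 (adjusted p = 0.00183) and 3.20 (adjusted p = 0.0179), and Slc25a22, a mitochondrial glutamate carrier, rose by 1.97 (adjusted p = 0.00711). Slc1a2 and Slc1a3 are also among the astrocyte markers, which summed to 1307 CPM on the first E18 plate, 279 on the second and 110 and 82.2 at P4. In Pou4f1-positive wells alone the Slc1a2 difference was -4.23 (adjusted p = 0.000555, edgeR) and that of Slc1a3 -3.58 (adjusted p = 0.0140). Without the first E18 plate, Slc1a2 and Slc25a22 were called (adjusted p = 0.00474 and 0.0304) and Slc1a3 was not (adjusted p = 0.134). Of 8 tested genes of GABA and glycine handling, Slc6a17, a vesicular transporter of neutral amino acids, rose by 2.97 (adjusted p = 0.00166) and Aldh5a1, which completes GABA breakdown, by 1.83 (adjusted p = 0.00529), both also called without that plate; 2 of 8 is near the share of all genes. Among 5 other vesicular transporters 1 was higher and 1 lower. The acetylcholine transporter Slc18a3 rose by 8.88 (adjusted p = 0.000382) from 0 and 0.754 CPM at E18 to 122 and 117 at P4, a fold that rests on nearly no E18 UMIs; the E18 plates of the second set had 8.96 to 26.8 CPM. Slc17a9, a vesicular nucleotide transporter, had a mean of 1.95 CPM at E18 and no count on either P4 plate, so its fitted difference has no set size; the test called it lower (adjusted p = 0.0190), but not without the first E18 plate (adjusted p = 0.101).

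Of 15 tested GABA-lineage factors 5 were lower at P4 and none higher, with a median of -3.87, but without the first E18 plate 0 of 16 were called by edgeR and the median was -1.08. In Pou4f1-positive wells, with both E18 plates, 4 of 9 tested factors were lower at P4 and none higher, with a median of -4.32. There 3337 of 16353 genes were called (edgeR). On the first and second E18 plates Six3 was 71.0 and 0 CPM, Lhx5 17.6 and 0.754, Dlx6os1 7.58 and 0.754, and Lhx6 3.59 and 2.26, so the first was higher for each, least so for Lhx6. At P4 Lhx6 was 0.170 and 0.153 CPM. Of 11 glutamate-lineage factors 2 were higher and 2 lower at P4, with a median of 0.28. Neurod1 was 106 and 160 CPM at E18 against 490 and 685 at P4 and rose by 2.36 (adjusted p = 0.00187), which was also called without the first E18 plate (adjusted p = 0.00745). From P7 to adult, Slc1a2, Glul and Slc6a9, genes of transmitter clearance or recycling, were higher by 2.57, 1.85 and 2.25 (adjusted p = 0.0175, 0.0426 and 0.0155, edgeR), and in Pou4f1-positive wells the estimates were 0.39, 0.89 and 0.94 (adjusted p = 0.742, 0.304 and 0.198). Astrocyte markers, Slc1a2 among them, summed to 1019 and 611 CPM on the adult plates against 122 and 91.7 at P7, and their part was not tested. Neurod6 fell by 4.65 from P7 to adult (adjusted p = 0.0231, edgeR) and by 4.67 (adjusted p = 0.0219) in Pou4f1-positive wells.

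The genes whose levels followed a member most closely over the 15 plates of the main set were ranked by Spearman correlation among 12750 genes of at least 5 CPM, as a description in which stages and depth are shared. They were Clip3 (rho 0.94), Slc4a3, Atp2c1, Enox2 and Osbpl3 for Slc17a6, and Emc4 (rho 0.98), Bcl2l2, Dctn6, Stac and Kat7 for Slc17a7. For Slc17a8 they were Gm44229 (rho 0.95), Lrrtm4, Ppp2r2c, Pde4d and Adarb2. For Gad1 they were Unc13c (rho 0.88), a vesicle priming factor, followed by Pcbp3, Cngb3, Pde11a and Wls, and for Gad2 Txnip, Nck1, Smim8 and Ccdc166 (rho 0.81 to 0.80).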

How the data were processed

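Single cells were profiled by CEL-Seq2 on 20 plates, and the authors deposited tables of spliced, unspliced and total values per gene and well. The values are expected counts: each is a whole number of UMIs corrected for the 4096 possible 6-base UMIs, and the correction could be undone for 100% of nonzero values in each deposited table, of which 46.1% (main set) and 43.8% (second set) of the totals were already whole. Reads were aligned to mm10 with STAR 2.5.3a after Trim Galore, per the submitters' processing notes; no source used here states strand use or annotation. Deposited expected counts of kept wells, without the 92 spike-ins, were summed per plate and rounded, in place of the raw counts the design assumed. They were tested with edgeR 4.0.16 (filterByExpr, TMM, quasi-likelihood F test, R 4.3.3), with Benjamini-Hochberg adjustment at 0.05 over all genes. DESeq2 1.42.0 was an alternative, and the scripts were tested on simulated data. Python 3.11.15 with numpy 2.4.6, pandas 2.3.3 and scipy 1.17.1 gave shares, exact intervals and thinning, on recovered whole UMIs.

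The plate is the replicate. The plates of 7 stages shared one estimate of spread, the E12 plate entered only an alternative fit, and the sets were tested apart. Gates on cholinergic or Tac1 genes were compared with plate as a term on plates with 10 wells in each. No doublet caller was run; 82 and 10 wells above 3 times their plate's median UMIs were left out as an alternative. Fold changes are log2 values from fits to the deposited expected counts. The SE beside an edgeR fold change was derived from the test, as the absolute fold change divided by the square root of the F statistic. It is not an output of the fit and can understate the error where UMIs are few. Replicate numbers only name plates. Alternatives were other filters, scalings, tools, well classes and leaving out each plate. The text names the 6 members, list genes past the threshold (up to 4 per list and comparison, largest change first), and the 5 genes most like each member; some genes that this rule names are not reported here. The members, lists and gates were chosen with earlier results of these data known. A test of medial against lateral marker wells could not be fitted. No P4, P7 or adult plate had 10 wells with at least 3 lateral and fewer than 3 medial markers.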

Additional observations from a re-analysis of the deposited data

How the results depend on the processing

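The number of members called changed as follows; the cause was not tested. From E11 to E13 it was 1 and not 0 (Gad2) by DESeq2, with no filter on low counts, without wells of very high UMIs and in Pou4f1-positive wells; from E15 to E18 1 and not 0 (Gad1) by DESeq2 and with no filter; from P4 to P7 1 with no filter and 2 with the plates of the pair of stages alone (Slc17a7 and Slc17a8, adjusted p = 0.0298 and 0.0170, edgeR); and from P7 to adult 2 with no filter and 1 without wells of very high UMIs. From E18 to P4 it was 1 (Slc17a7) and not 2 with DESeq2 size factors, a minimum of 2000 UMIs, the replicate block, neuron-marker wells, Pou4f1-positive wells, the plates of those stages alone or E12 added, 3 with no filter (Gad1 lower at P4, adjusted p = 8.41e-07), and 1 to 2 when each plate was left out in turn; without P4 plate 1 the 2 were Slc17a7, higher, and Gad1, lower. For the test over stages leaving out 1 plate gave 3 to 5 members. The Slc17a6 estimate between gates was 0.035 with no filter, 0.30 in the second set, and between -0.11 (without P7 plate 2) and 0.067 (without P7 plate 1) when 1 plate was left out. The replicate numbers did not pair plates (correlation of same-numbered deviations from -0.357 to 0.246 over 21 pairs, 0.233 for the sides); with the replicate block 196, 4, 16, 2916, 1 and 493 genes were called over the successive steps, 7200 over stages and 6 between sides, and with no replicate block 882 between gates.

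Counts of all genes called by edgeR and by DESeq2 were 253 and 932 from E11 to E13 (28 to 1715 over all alternatives), 16 and 445 from E13 to E15 (0 to 1249), 34 and 664 from E15 to E18 (0 to 2100), 3421 and 4085 from E18 to P4 (528 to 5695), 1 and 22 from P4 to P7 (0 to 541), 625 and 1411 from P7 to adult (27 to 1766), 8105 and 9808 over stages (5626 to 10475), 0 and 1 between sides (0 to 39), and 1153 and 797 between gates (797 to 1286).

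Co-detection moved with depth. The share of wells with both kinds, 9.32% at E18, was 20.1% at 5000 UMIs, 27.4% without thinning and 1.08% with at least 2 UMIs of each kind; at P7, 9.15% was 6.30% at 2000, 12.4% at 5000, 20.7% without thinning and 3.26% with at least 2 UMIs. The share of GABA-gene wells with a glutamate transporter, 47.8% at E18, was 76.2% without thinning and 19.0% with at least 2 UMIs; at P7, 88.5% was 70.4%, 92.0%, 98.5% and 55.6%. At P4 10 of 14 and 3 of 4 wells became 5 of 10 and 1 of 3 at 2000 UMIs. With 2 plates a stage, and low counts of Slc17a8 (2 to 98 UMIs per plate) and Slc32a1 (0 to 36), small changes were not detectable.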

Other observations

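Genes other than the members are given here for the GABA wells of the second adult plate and of the P7 plates. A GABA well here had at least 2 UMIs of Gad1, Gad2 and Slc32a1 together. On that adult plate 19 wells met this, 9 of them with a glutamate transporter (47.4%), and Olig1, a factor of the oligodendrocyte lineage, was 1216 CPM in them against 262 CPM in the other kept wells, and at P7 8.37 and 1.3 CPM in GABA wells against 28.4 and 18.6 CPM in the others. Nkx2-2, another lineage factor, was 97.3 against 10.8 CPM, while the myelin gene Mbp was 44.0 against 315 CPM. At P7 a glutamate transporter was present in 38 of 38 and 33 of 34 GABA wells. In the P7 GABA wells Tac2, a medial habenula neuropeptide gene, was 930 and 904 CPM against 697 and 620 in the other wells. The choline transporter Slc5a7 was 44.7 and 46.8 against 232 and 235 CPM, and the uptake transporter Slc1a2 91.2 and 90.9 against 16.8 and 21.2 CPM. GABA wells were chosen by their own UMIs, so these are descriptions with no test.

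On 11 plates with at least 10 GABA wells, 8458 genes had a mean of at least 20 CPM in the GABA wells. That filter reads the wells being compared, so the counts are a description with no test. Folds divide by the CPM of the other wells, or by that of 3 counts there if larger. Of the 8458 genes, 115 were higher in GABA wells than in the other wells on every plate. The 10 with the largest median fold were D930028M14Rik (5.32-fold), Fam163a (4.88), Nrxn3 (4.59), Onecut1 (4.38), Pde11a (4.22), Gm20649 (4.08), Greb1 (3.66), Dock5 (3.45), AC159282.1 (3.19) and Cntnap4 (3.19). Nrxn3 and Cntnap4 encode adhesion proteins of synapses, Onecut1 a transcription factor and Pde11a a cyclic nucleotide phosphodiesterase. Pde11a was also among the genes most like Gad1 over plates.

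Unspliced shares differed between members and stages. For Slc17a6, 37.5% of UMIs were unspliced at E11, 26.7% at E18 in the main set and 14.7% to 17.0% in the second, against 6.42% at P4, 4.51% at P7 and 5.04% in adults. For Slc17a7 only 1 of 2229 UMIs at P4, 4 of 3614 at P7 and 0 of 1300 in adults were unspliced. For Gad1 the share was 46.6% (E18, main set), 24.5% to 29.0% (E18, second set), 13.3% (P4), 8.79% (P7) and 32.6% (adult). The adult Gad1 share differed between plates, with 2 of 42 UMIs unspliced on the first and 40 of 87 on the second. Over all genes it lay between 18.1% and 27.1%.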
